A study of Mus musculus with 6 samples.

Results

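Membrane adenylyl cyclases are the enzymes that turn ATP into the second messenger cAMP. The 8 genes described here (Adcy1, Adcy2, Adcy3, Adcy5, Adcy6, Adcy7, Adcy8 and Adcy9) were taken by their NCBI mouse gene identifiers from the 36528 genes that the deposited tables list. All 8 were found in every library, and all 8 were among the 22043 genes with enough reads to be tested. RNA came from lumbar dorsal root ganglia, the clusters of sensory neurons that supply the hind limb, of female mice aged 12 to 18 weeks.

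Every mouse was homozygous for a loxP-flanked Scn9a gene (Scn9a loxP/loxP), which encodes the sodium channel Nav1.7. The control group had no Cre transgene (pCAAG.Cre.ER Neg, n = 3). The CreER-positive group (pCAAG.Cre.ER Pos, n = 3) carried CreER, a Cre recombinase that is active only when its oestrogen receptor domain binds a drug such as tamoxifen. Per the series text, the CreER-negative mice were littermates and the CreER-positive mice were the knockout group, and the series title calls the knockout global, so it is not limited to sensory neurons. The sources used here do not give drug dosing or the interval before sampling. Each library held 6 pooled ganglia of 1 mouse. In bulk RNA of this kind, fewer cells of a type and less RNA per cell cannot be told apart.

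Adenylyl cyclases are switched on by the stimulatory G protein Gs and, for several members, held back by Gi. The cAMP they make is broken down by phosphodiesterases and acts through protein kinase A, Epac proteins and cyclic nucleotide-gated channels. In nociceptors, inflammatory mediators such as prostaglandin E2 act through Gs-coupled receptors to sensitise the neuron, and opioids act through Gi to oppose this. The members differ in how they are regulated: Adcy1, Adcy3 and Adcy8 encode cyclases stimulated by calcium and calmodulin, Adcy2 and Adcy7 encode cyclases stimulated by G protein beta-gamma subunits, Adcy5 and Adcy6 encode cyclases inhibited by calcium and Gi, and Adcy9 encodes a cyclase that responds little to forskolin.

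Total counts ranged from 40237131 to 63332040 per library. All 13 sensory neuron markers were detected in every library, with summed levels of 11724 to 13229 CPM (counts scaled to library size with TMM factors) in the controls and 11161 to 14773 CPM in the CreER-positive mice. Skeletal muscle markers summed to 61.5 CPM in control replicate 2 and to 5.75 to 8.74 CPM elsewhere. CreER-positive replicate 3 had the highest sums of macrophage (132 against 68.0 to 90.5 CPM), endothelial (167 against 105 to 127 CPM), fibroblast (1583 against 896 to 1170 CPM), satellite glia (2288 against 1620 to 1900 CPM), adipocyte (5.26 against 2.33 to 3.85 CPM) and red blood cell markers (82.5 against 32.4 to 42.9 CPM). Estimates were positive for all 5 satellite glia, 7 endothelial, 5 red blood cell and 2 tested oligodendrocyte markers. They were negative for all 5 tested skeletal muscle and 3 tested lymphocyte markers, and 11210 of all 22043 tested genes had positive estimates. Unadjusted p was under 0.05 for 3 of 13 sensory neuron, 2 of 5 satellite glia and 2 of 6 mural markers. It was so for 2 of 5 tested skeletal muscle, 1 of 8 Schwann cell, 1 of 7 endothelial and 1 of 2 oligodendrocyte markers. No other list had any, and the share over all tested genes was 10.5%. Over the 12 lists of cell type markers edgeR called 1 gene, the mural cell gene Rgs5, and so did limma-voom. DESeq2 called Rgs5 and 1 of the 13 sensory neuron markers, Scn10a. Over all genes that each adjusted, edgeR called 0.726%, limma-voom 0.721% and DESeq2 2.27%. Scn9a itself had 557 to 635 CPM in the controls and 565 to 620 CPM in the CreER-positive mice (log2 fold change -0.04, edgeR adjusted p 0.916). The count is taken over the gene as a whole, not over the loxP-flanked part alone, so this value does not check the labels. How far the gene was recombined was not tested.

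Of the 8 cyclase genes, 1 changed: Adcy8 was higher in CreER-positive ganglia. The other 7 did not pass the test, with log2 fold changes from -0.21 to 0.03. Calls were made with edgeR (quasi-likelihood, Benjamini-Hochberg adjusted p under 0.05 over all 22043 tested genes), which called 160 genes, or 0.726% of those tested (0.177% higher and 0.549% lower). DESeq2 called 2.27% and limma-voom 0.721% of the genes they adjusted, and among the members both called Adcy8 alone. The median log2 fold change was -0.02 over the 8 members and 0.00 over all tested genes.

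**Figure D1:**
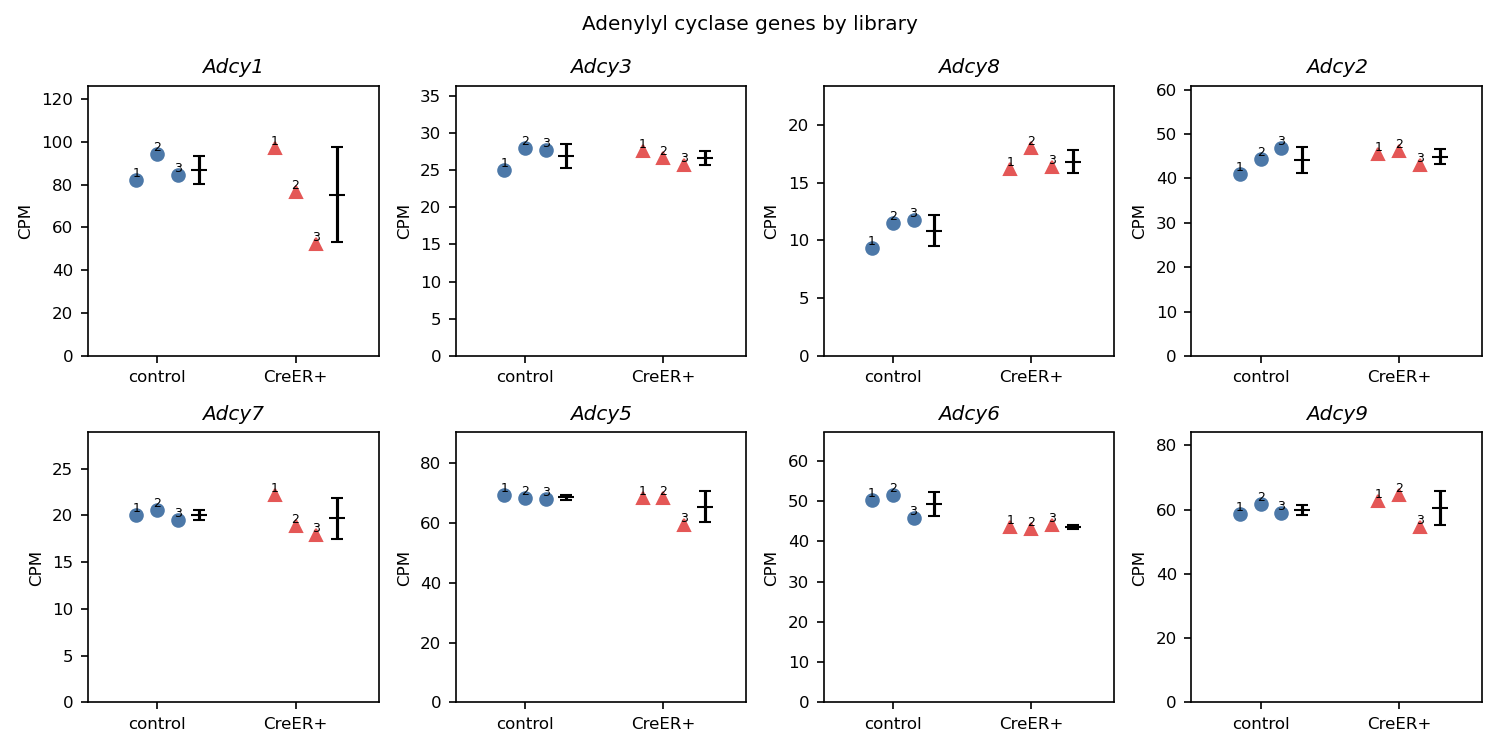
CPM (counts scaled to library size, vertical axes from 0) of the 8 adenylyl cyclase genes in each of the 3 control and 3 CreER-positive (CreER+) libraries, numbered by replicate, with mean and SD (n = 3) as bars. The CreER-positive points lie above all control points for Adcy8 (16.2 to 18.0 against 9.35 to 11.8 CPM) and below them for Adcy6 (43.1 to 44.0 against 45.8 to 51.6 CPM), and the groups overlap for the other 6 genes.

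Among the calmodulin-stimulated cyclases, Adcy8 (NCBI gene 11514, on chromosome 15 from 64699035 to 64922296, GRCm38 as for all genes below) was at 9.35, 11.5 and 11.8 CPM in control replicates 1 to 3. CreER-positive replicates 1 to 3 had 16.2, 18.0 and 16.3 CPM. Every CreER-positive library was above every control library, and the lowest CreER-positive value exceeded the highest control value by more than the SD of either group. Means of the groups were 10.9 ± 1.32 and 16.8 ± 1.01 CPM (SD, n = 3), which gave a log2 fold change of 0.63 ± 0.10 (SE). This is a 1.54-fold rise with a 95% interval from 1.33 to 1.79, at an edgeR adjusted p of 0.0211. These values rest on 380 to 743 reads per control library and 869 to 1105 per CreER-positive library. Adcy8 was also called by DESeq2 (adjusted p 3.0e-06) and limma-voom (adjusted p 0.0208).

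The size of the Adcy8 difference stayed between 0.53 and 0.69 on the log2 scale in all 15 alternatives, while its call depended on which libraries were kept. The call was lost without control replicate 1 (edgeR adjusted p 0.0598), control replicate 2 (0.0896), control replicate 3 (0.0600) or CreER-positive replicate 2 (0.0589), and without control replicate 2 and CreER-positive replicate 3 together (0.0722). It held without CreER-positive replicate 1 (0.0375) or 3 (0.0184) and under the 8 other scalings, filters and tests. In GENCODE M21, 104603 bases of the Adcy8 span overlap the gene Gm21798 on the opposite strand. No source used here gives the strand setting of the counting, so reads there cannot be assigned to 1 of the genes.

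**Figure D2:**
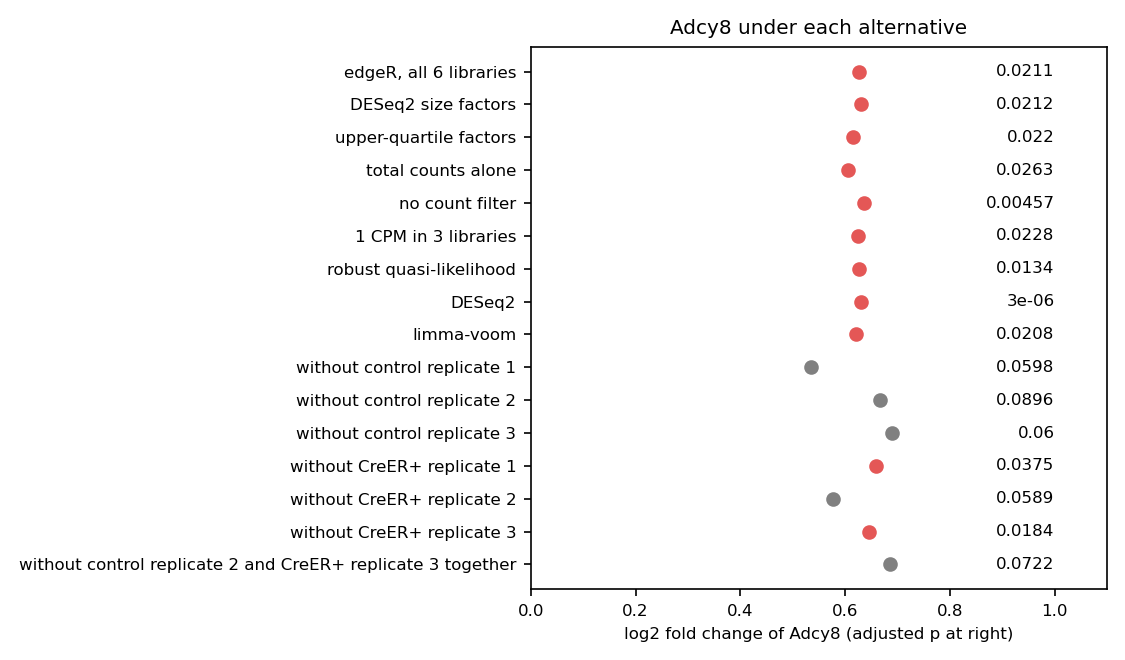
Log2 fold change of Adcy8 (horizontal axis, CreER-positive over control) with all 6 libraries and under each of the 15 alternatives, with the adjusted p of that fit at the right. Red points passed 0.05 and grey points did not, and all estimates lie between 0.53 and 0.69.

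Of the 5 oligodendrocyte markers 2 could be tested, and edgeR, DESeq2 and limma-voom called neither. The summed level of the 5 was 1.06 to 2.63 CPM in the controls and 2.78 to 13.4 CPM in the CreER-positive mice, where replicate 2 had the 13.4 CPM. Most of this was Mobp, a myelin gene, at 0.640, 1.01 and 2.18 CPM against 2.77, 12.1 and 2.22 CPM (edgeR adjusted p 0.263). Of the defining markers, Olig2 had no read in any control library and Opalin had at most 1 read in any library. The part of these transcripts in the Adcy8 value was not tested.

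Adcy1 (NCBI gene 432530, chromosome 11, 7063433 to 7178506), the neuronal cyclase often studied together with Adcy8, varied most between the CreER-positive mice. It had 82.2, 94.2 and 84.3 CPM in control replicates 1 to 3, against 96.9, 76.7 and 52.3 CPM with CreER. CreER-positive replicate 1 was the highest of the 6 libraries and replicate 3 the lowest, so the groups overlapped. Control mice averaged 86.9 ± 6.44 and CreER-positive mice 75.3 ± 22.3 CPM (SD, n = 3). The estimate of -0.21 on the log2 scale had a 95% interval of -0.60 to 0.19 (edgeR adjusted p 0.766). Without CreER-positive replicate 3 the estimate was 0.00 (adjusted p 0.997). That library also had the lowest summed level of sensory neuron markers (11161 CPM), and their part in its Adcy1 value was not tested.

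Adcy3 (chromosome 12, 4133116 to 4213525), known as the cyclase of olfactory neurons and of primary cilia, had 25.0, 27.9 and 27.8 CPM in control replicates 1 to 3, against 27.6, 26.7 and 25.7 CPM with CreER. The CreER-positive values lay inside the control range. The log2 fold change was -0.02 (edgeR adjusted p 0.965), and its 95% interval reached from a fall of 10.3% to a rise of 9.19%. Adcy3 shares 17522 bases with Cenpo, a centromere protein gene on the opposite strand.

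Within the calmodulin-stimulated class the estimates were 0.63 for Adcy8, -0.02 for Adcy3 and -0.21 for Adcy1, and differences between these genes were not tested.

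Neither of the beta-gamma-stimulated cyclases passed. Adcy2 (chromosome 13, 68620043 to 68999600) had 41.0, 44.5 and 46.8 CPM in control replicates 1 to 3, against 45.4, 46.3 and 43.1 CPM with CreER. The estimate was 0.03 on the log2 scale, 95% interval -0.11 to 0.16 (edgeR adjusted p 0.925). All CreER-positive values lay inside the control range. Adcy7 (chromosome 8, 88272190 to 88329965), a cyclase with high expression in blood and immune cells, had 20.0, 20.5 and 19.5 CPM in control replicates 1 to 3, against 22.2, 18.9 and 17.9 CPM with CreER. The estimate was -0.03, 95% interval -0.21 to 0.16 (edgeR adjusted p 0.953). The lowest Adcy7 value was that of CreER-positive replicate 3. That library had the highest summed macrophage markers, and was also highest for several other cell types. The part of these cells in the Adcy7 value was not tested.

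The calcium-inhibited cyclases Adcy5 and Adcy6 both had negative estimates that did not pass. Adcy6 (NCBI gene 11512, chromosome 15, 98589978 to 98610287) had 50.2, 51.6 and 45.8 CPM in control replicates 1 to 3, against 43.6, 43.1 and 44.0 CPM with CreER. Every CreER-positive library was below every control library, and the CreER-positive values lay within 1 CPM of each other. Control mice averaged 49.2 ± 3.00 and CreER-positive mice 43.6 ± 0.417 CPM (SD, n = 3), a difference on the log2 scale of -0.17 ± 0.06 (SE). The 95% interval was -0.30 to -0.05, the unadjusted p was 0.0121 and the edgeR adjusted p was 0.283. Markers of mural cells, the contractile cells of small vessels, were also lower when summed, at 221 to 241 CPM in control and 201 to 211 CPM in CreER-positive libraries. Of the 6 mural markers 1 fell, the pericyte gene Rgs5 (-0.41, edgeR adjusted p 0.0341), while 4 had positive estimates. The part of these cells in the Adcy6 value was not tested. Adcy6 shares 1101 bases with the predicted gene Gm29331 on the opposite strand. Other members overlap predicted genes on the same strand: Adcy2 with Gm48593 (2483 bases), Adcy5 with Gm49702 (1797 bases) and Adcy9 with Gm6142 (325 bases). Adcy2 and Adcy5 also overlap predicted genes on the opposite strand.

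Of all tested genes, 10.5% had an unadjusted p under 0.05 and 15.9% had groups that did not overlap, against 2 of the 8 members (Adcy6 and Adcy8) by either measure. The Adcy6 estimate was negative in all 15 alternatives (-0.22 to -0.14), and none called it (adjusted p 0.136 to 0.751). Adcy5 (chromosome 16, 35154494 to 35305743), the main cyclase of the striatum, had 69.4, 68.2 and 67.9 CPM in control replicates 1 to 3, against 68.3, 68.5 and 59.4 CPM with CreER. Only CreER-positive replicate 3 lay outside the control range. The estimate was -0.07, 95% interval -0.21 to 0.07 (edgeR adjusted p 0.789).

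Adcy9 (chromosome 16, 4284886 to 4437236), a widely expressed cyclase, had 58.6, 61.6 and 59.1 CPM in control replicates 1 to 3, against 62.6, 64.6 and 54.6 CPM with CreER. The log2 fold change was 0.02 (edgeR adjusted p 0.955), and the 95% interval reached from a fall of 8.7% to a rise of 12.6%. CreER-positive replicate 3 was again the lowest library, as for Adcy1, Adcy5 and Adcy7.

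**Figure D3:**
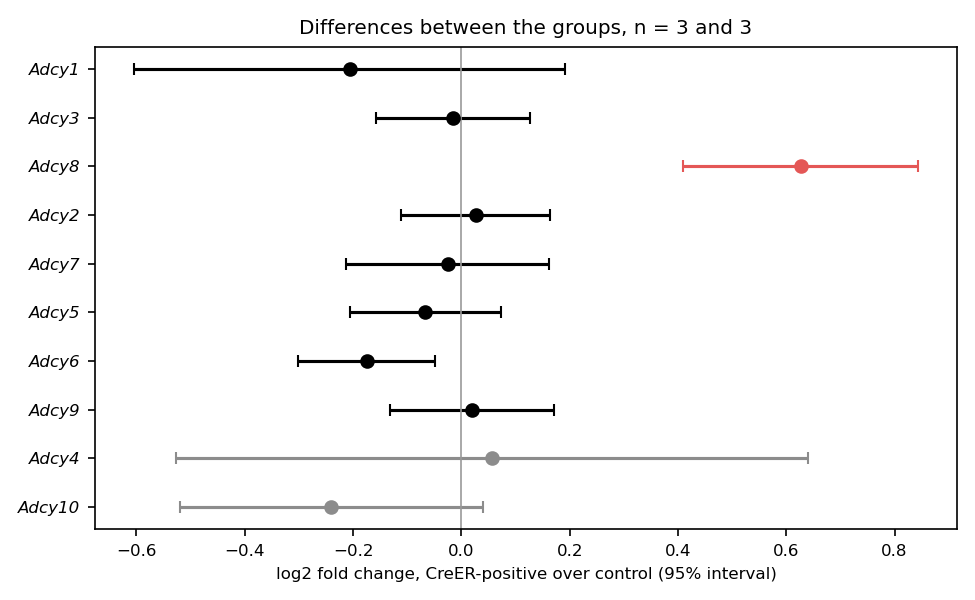
Log2 fold change (horizontal axis, CreER-positive over control, edgeR) with its 95% interval for the 8 members (black, red where the adjusted p is under 0.05) and for Adcy4 and Adcy10 (grey), n = 3 and 3. The interval excludes 0 for Adcy8 (0.41 to 0.84) and Adcy6 (-0.30 to -0.05), and Adcy8 alone passed after adjustment.

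Adcy4 and Adcy10, cyclase genes outside these 8, did not pass either. Adcy4, another beta-gamma-stimulated cyclase, had 4.21, 3.90 and 4.22 CPM in control replicates 1 to 3, against 3.05, 3.27 and 6.56 CPM with CreER (log2 fold change 0.06, edgeR adjusted p 0.968). Its value in CreER-positive replicate 3 was the highest of the 6, and without that replicate the estimate was -0.38 (edgeR adjusted p 0.119). CreER-positive replicate 3 also had the highest endothelial, macrophage, fibroblast, satellite glia, adipocyte and red blood cell sums. The part of these cells in the Adcy4 value was not tested. Adcy10, the soluble cyclase that responds to bicarbonate, had 2.68, 2.44 and 2.51 CPM in control replicates 1 to 3, against 2.03, 2.15 and 2.27 CPM with CreER. Its groups did not overlap, but the log2 fold change of -0.24 had an edgeR adjusted p of 0.556.

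Levels of different genes can be compared only per length, and here their order depended on the length used. The authors' RPKM (reads scaled to gene length and library size) divides by a gene width that is close to the whole gene span for all 8 members, from 20337 bases for Adcy6 to 379499 for Adcy2. By RPKM, Adcy6 was highest at 2.32 ± 0.206 (SD, n = 6 libraries), followed by Adcy1 at 0.716 ± 0.137. Adcy5 (0.457), Adcy9 (0.402), Adcy7 (0.350) and Adcy3 (0.338) came next. The ranges over the 6 libraries overlapped between each neighbouring pair from Adcy1 down to Adcy3. Adcy2 (0.119 ± 0.00497) and Adcy8 (0.0627 ± 0.0151) were lowest and stood apart from the rest and from each other.

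Per kilobase of merged exons (GENCODE M21) the order was different. Adcy9 (11.6 ± 0.682 CPM per kb) and Adcy2 (10.6 ± 0.517) were highest and overlapped. Adcy5 (9.32 ± 0.517) was next and did not overlap its neighbours. Adcy6 (6.84), Adcy1 (6.48) and Adcy3 (4.29) followed, with overlap between each neighbouring pair. Adcy7 (2.95 ± 0.218) and Adcy8 (1.70 ± 0.421) were separate and lowest. Adcy8 therefore ranked last on both scales, Adcy5 at rank 3 and Adcy3 at rank 6, while Adcy2 moved from rank 7 to rank 2. Merged exons make up 33.3% of the width for Adcy6 and 1.11% for Adcy2, and the share of reads from introns is not known.

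**Figure D4:**
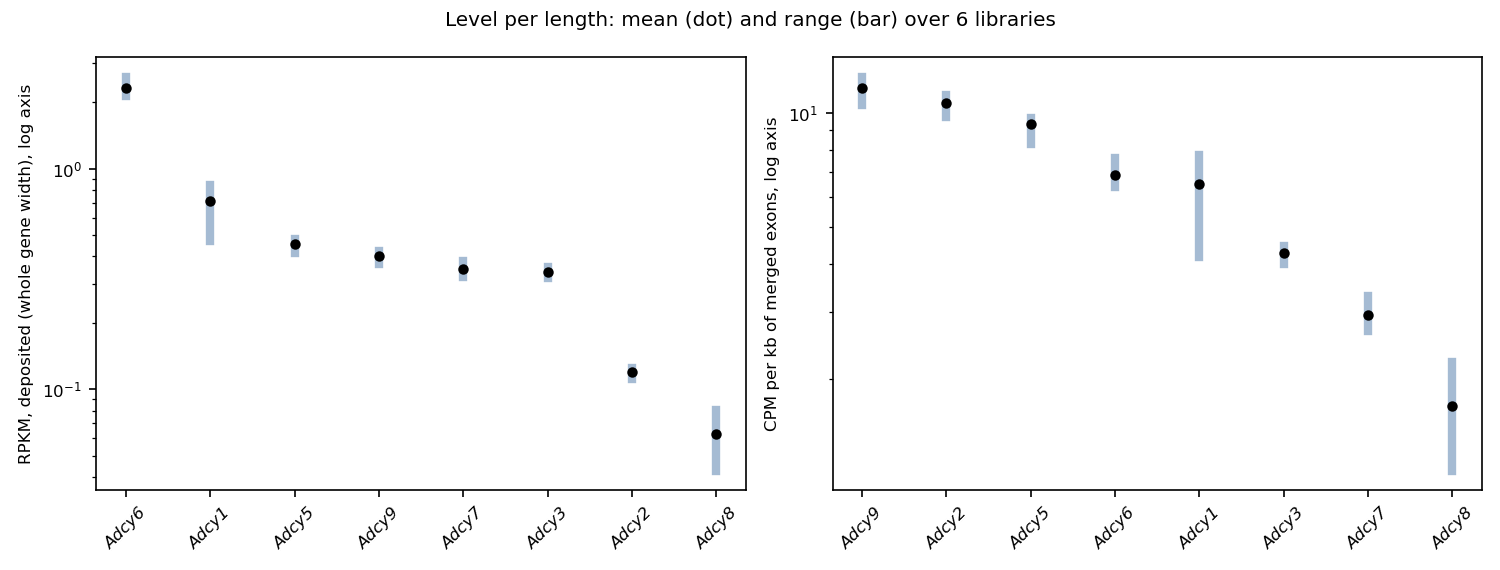
Level of the 8 members per length on log axes, as the authors' RPKM over the whole gene width (left) and as CPM per kilobase of merged exons (right), with the mean (dot) and range (bar) over the 6 libraries. Adcy8 is lowest on both, and the order of the others differs between the scales.

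Among genes upstream of the cyclases, the receptor genes Htr4 and Gpr119 changed. In the 11 lists of pathway genes that follow, 1 of 148 tested genes was higher and 3 were lower, against 0.177% and 0.549% of all tested genes. Of 26 tested Gs-coupled receptor genes, 1 fell and 1 rose, and the list's median was 0.09. An unadjusted p under 0.05 was found for 7 of them, against 10.5% of all tested genes. Groups did not overlap for 6, against 15.9% of all tested genes. The same shares apply to the counts of the lists below. Htr4, the Gs-coupled serotonin receptor 5-HT4, had 32.0, 29.0 and 27.1 CPM in control replicates 1 to 3, against 18.1, 14.9 and 17.5 CPM with CreER. The groups were far apart, and the fall (log2 fold change -0.80 ± 0.09, SE; edgeR adjusted p 0.00390) was called in all 15 alternatives.

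Gpr119, a Gs-coupled lipid receptor gene of gut and islet endocrine cells, rose from 1.80, 1.93 and 1.52 CPM to 3.20, 3.42 and 3.98 CPM (log2 fold change 1.02 ± 0.15, SE; edgeR adjusted p 0.0152). The call was lost without control replicate 1 (0.0710), 2 (0.0552) or 3 (0.0771). Of the 32 listed receptor genes, 6 had too few reads to be tested. Of 34 tested Gi/o-coupled receptor genes, edgeR called none, 2 had an unadjusted p under 0.05, DESeq2 called 1 and limma-voom 0. These were the somatostatin receptor gene Sstr4 (-0.85, edgeR adjusted p 0.0790; 0.0321 by DESeq2) and the muscarinic receptor gene Chrm4 (-0.43, edgeR adjusted p 0.244; 0.104 by DESeq2).

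Of 7 G protein alpha subunit genes none was called by edgeR, DESeq2 or limma-voom, and 6 had positive estimates. Gnas, which encodes the stimulatory subunit Gs alpha, had 1028, 1073 and 1135 CPM in control replicates 1 to 3, against 1311, 1372 and 1149 CPM with CreER. The groups did not overlap, by the narrow margin between control replicate 3 and CreER-positive replicate 3. Its log2 fold change was 0.24 (edgeR adjusted p 0.326; 0.0866 by DESeq2), and it passed without CreER-positive replicate 3 (0.32, edgeR adjusted p 0.0183). Gnas overlaps Nespas on the opposite strand. Gnai2, an inhibitory subunit gene, had 0.14 (edgeR adjusted p 0.478). Gnas was the 1 gene of the list with an unadjusted p under 0.05.

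Among 15 genes for calmodulin, calcium-dependent enzymes, G protein chaperones and cyclase-associated proteins, edgeR and limma-voom called none. DESeq2 called 1, and 1 had an unadjusted p under 0.05. This was Camk2d, a calmodulin-dependent kinase gene (0.19, edgeR adjusted p 0.262; 0.0296 by DESeq2). Ric8b, a chaperone gene of Gs-type subunits, had -0.11 (edgeR adjusted p 0.517).

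Of 16 phosphodiesterase genes whose products break down cAMP, 2 fell and none rose. An unadjusted p under 0.05 was found for 4 of the 16, against 10.5% of all tested genes. Pde1b, whose enzyme is itself stimulated by calcium and calmodulin, had 9.03, 8.97 and 9.02 CPM in control replicates 1 to 3, against 6.12, 5.86 and 4.94 CPM with CreER. The controls were nearly equal and all 3 CreER-positive libraries were lower. The log2 fold change was -0.67 ± 0.10 (SE; edgeR adjusted p 0.0155). The call was lost without control replicate 1 (0.0812), 2 (0.0990) or 3 (0.0936), and without control replicate 2 and CreER-positive replicate 3 together (0.0556).

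Pde10a, a phosphodiesterase of cAMP and cGMP best known from the striatum, fell from 56.1, 57.5 and 53.5 CPM to 46.8, 43.1 and 40.4 CPM (log2 fold change -0.36 ± 0.06, SE; edgeR adjusted p 0.0415). The call was lost without control replicate 1 (0.209), 2 (0.237) or 3 (0.122), without CreER-positive replicate 2 (0.112), and without control replicate 2 and CreER-positive replicate 3 together (0.110). Predicted genes, Gm15425 among them, lie within Pde10a on the opposite strand. Of the other calmodulin-stimulated phosphodiesterase genes, Pde1c had -0.27 (edgeR adjusted p 0.131) and Pde1a -0.01 (0.988). DESeq2 called Pde1c as well as the other 2. The list's median was -0.02, with 6 positive and 10 negative estimates.

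**Figure D5:**
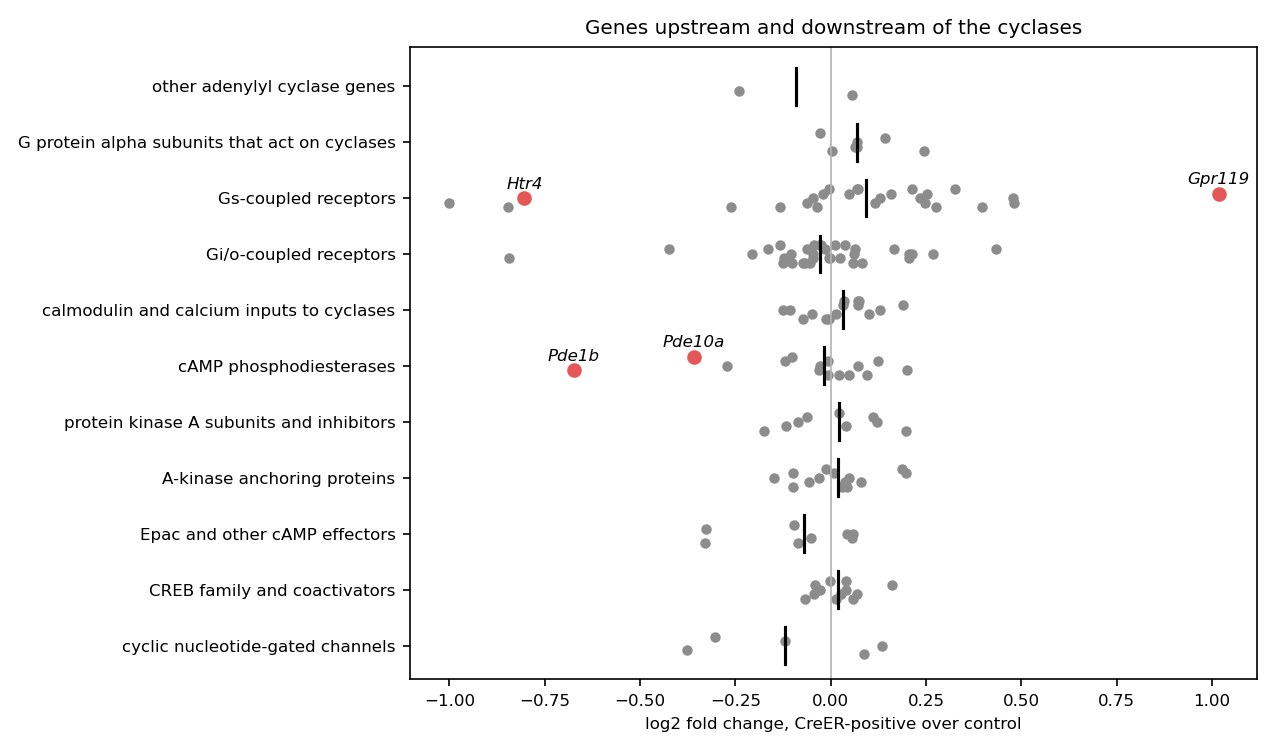
Log2 fold change (horizontal axis, CreER-positive over control) of each tested gene in the 11 lists around the cyclases, with the list's median as a black bar and called genes in red. The called genes are Htr4, Gpr119, Pde1b and Pde10a, and the list medians lie between -0.12 and 0.09.

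Among the lists of genes that act downstream of cAMP, limma-voom called none, edgeR called none in the fit used throughout, and DESeq2 called Bves alone. Of 9 protein kinase A subunit and inhibitor genes, 1 had an unadjusted p under 0.05, the regulatory subunit gene Prkar2b (-0.18, edgeR adjusted p 0.338; 0.122 by DESeq2). The catalytic subunit gene Prkaca had 0.20 (edgeR adjusted p 0.546) and passed without CreER-positive replicate 3 (0.31, adjusted p 0.0393). Of 8 genes for Epac and other cAMP-binding effectors and their Rap targets, 1 had an unadjusted p under 0.05: Bves, a membrane protein gene of the Popeye family that binds cAMP. It had 63.5, 59.6 and 59.1 CPM in control replicates 1 to 3, against 51.8, 44.9 and 48.2 CPM with CreER. The groups did not overlap (log2 fold change -0.33), but the edgeR adjusted p was 0.0549, against 0.00229 by DESeq2 and 0.0644 by limma-voom. With edgeR it passed with total counts alone (0.0447), no count filter (0.0355), robust quasi-likelihood (0.0423) or without CreER-positive replicate 3 (0.0396). Popdc2, of the same family, had -0.33 (edgeR adjusted p 0.567).

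Of 14 tested genes for proteins that anchor protein kinase A, edgeR called none and 1 had an unadjusted p under 0.05. This was Ezr, the ezrin gene (0.20, edgeR adjusted p 0.299; 0.292 by DESeq2), and Akap12 had 0.19 (edgeR adjusted p 0.515). The CREB family includes transcription factors that cAMP activates. Of 12 genes for this family, its coactivators and a phosphatase inhibitor, none had an unadjusted p under 0.05. Neither edgeR nor DESeq2 called Ep300 (-0.07) or Creb5 (0.16). Of 5 tested cyclic nucleotide-gated channel genes, none had an unadjusted p under 0.05. Cngb1 (-0.30, edgeR adjusted p 0.718) and Cnga2 (-0.38, 0.797) were near 1 CPM or below.

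The genes whose pattern over the 6 libraries was most like that of Adcy8 were Aldh1a3, Nkain1 and Sting1. Likeness was measured as the root mean square difference of centred log2 CPM over the 6 libraries, among 16303 other tested genes that averaged 1 CPM or more, where the median difference from Adcy8 was 0.35. Aldh1a3, a retinoic acid synthesis enzyme gene, differed by 0.05 and had 2.51, 3.16 and 2.91 CPM against 4.39, 4.77 and 4.42 CPM. Nkain1, a gene for a protein that interacts with the sodium pump, also differed by 0.05 (16.2, 19.2 and 19.8 against 26.9, 30.5 and 25.1 CPM). Sting1, the adaptor gene of cytosolic DNA sensing, differed by 0.09 (4.97, 5.62 and 5.50 against 7.67, 9.46 and 9.00 CPM). Since Adcy8 was called higher, genes chosen for likeness to it are higher as well, and their differences are given as a description.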

How the data were processed

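RNA-seq of 6 libraries (3 control and 3 CreER-positive mice, grouped by the genotype label) was used. The submitters' processing notes name GSNAP as the aligner and GRCm38 (mm10) as the genome. The sources used here give no counting tool, annotation or strand setting. Per the file headers, the deposited tables give 36528 NCBI genes with raw count, width and RPKM. The width was within 5% of the annotated span for 77.7% of genes, so introns appear to be counted. The authors' RPKM was used for levels only. Identifiers were matched to RefSeq (GRCm38.p6): 31049 matched, and 5479 without a symbol (1.91% of counts) stayed in the fit.

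Genes were filtered with filterByExpr, scaled with TMM and tested with edgeR 4.0.16 (quasi-likelihood, R 4.3.3) with Benjamini-Hochberg adjustment over 22043 genes at 0.05. The SE is the log2 fold change divided by the square root of F. The labels give no batch or pairing, and replicates were numbered in accession order. No pair of libraries within a group looked like copies of each other (chi-square over degrees of freedom at least 5.64).

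The members and lists were chosen with earlier results of these data known. Named genes were the 8 members, Scn9a, in each pathway list the called genes and the 2 with the smallest p, and the 3 genes most like the called member. Pde1a, Pde1c, Rgs5, Scn10a, Mobp, Olig2, Opalin and the overlapping genes were named outside this rule or for a value seen. Akap2 was not matched by symbol. Alternatives were DESeq2 1.42.0, limma-voom (limma 3.58.1), other scalings, filters and robust settings, and libraries left out. The edgeR step was also run on data simulated from the observed means and the dispersion trend, with 200 changed genes. It recovered 58% of 1.5-fold and 82% of 2-fold changes, with 13 false calls among 153. The simulation held no dispersion particular to a gene and no library that differed from its group. These rates therefore need not hold for the real libraries.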

Additional observations from a re-analysis of the deposited data

How the results depend on the processing

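The count of 160 called genes (39 higher, 121 lower) was 254 with no count filter (83 higher, 171 lower) and 420 by DESeq2 (157 higher, 263 lower). It ranged from 60 to 549 when each library was left out in turn, with 549 (320 higher, 229 lower) without CreER-positive replicate 3 and 60 (8 higher, 52 lower) without control replicate 2. It was 69 and 76 without control replicates 1 and 3. The count of members called was 1, and 0 or 1 when each library was left out. It was 0 without control replicate 2 and CreER-positive replicate 3 together. Some estimates changed sign, with no call. These were near 0 in the main fit, except for Adcy1 (-0.21) and Cnga2 (-0.38). Without that pair of libraries Adcy1 had 0.061, Adcy3 0.037, Adcy7 0.056 and Adcy4 -0.41. Adcy9 had -0.0036 with total counts alone, and Adcy4 -0.047 by limma-voom. Leaving out 1 library gave estimates of -0.022 to 0.075 for Adcy2, -0.063 to 0.013 for Adcy3, -0.12 to 0.037 for Adcy7, -0.029 to 0.090 for Adcy9, -0.38 to 0.25 for Adcy4, -0.086 to 0.0049 for Scn9a and -0.69 to 0.025 for Cnga2. The cause of these changes was not tested. No scaling moved the median log2 fold change of all genes by over 0.1. No paired analysis was possible because the labels give no pairing of littermates and no replicate numbers, so litter was not part of the test. The replicate numbers used here follow accession order and only name the libraries. With 3 mice a group, a missing call does not show that a gene is unchanged.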
